A study of Bos taurus with 17 samples.

Results

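The EGF-like ligands AREG, EREG, BTC, HBEGF and NRG1, the receptors EGFR, ERBB2 and ERBB3, and the membrane-bound proteases ADAM17 and ADAM10 were examined in cow cumulus cells, the somatic cells that surround the oocyte. A probe was taken for one of these 10 genes when its gene name on the array was the symbol, or when its description named the gene and its gene name was only a provisional number. This rule found 10 of the 21475 non-control probes, for 9 of the 10 genes. NRG1 had 2 probes, and no probe met the rule for EREG, which was not analysed here. The ERBB3 probe carries the accession of an expressed sequence tag as its gene name, so its identity rests on the description alone.

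The 3 stages were compared on 17 arrays of 1 colour, each hybridised with Cy3-labelled RNA of 1 sample. NC1 cells came from 6 prepubertal calves aged 3 to 6 months, and C1 cells came from 6 adult cows of various ages. In both cases the complexes were aspirated after slaughter, from follicles of 3 to 6 mm for NC1, and had a compact cumulus around an oocyte in prophase I. C2 cells came from 5 cycling Holstein cows aged 3 to 5 years and not in lactation, which had received progestagen implants, 400 µg in total of an FSH/LH preparation and prostaglandin F2α. Their complexes were taken in vivo by ovum pick up 60 h after the prostaglandin, from follicles over 8 mm, and had an expanded cumulus around an oocyte in metaphase II. Maturation can therefore not be told apart from hormone treatment, follicle size and mode of collection in C2, and the animals' age separates NC1 from both C1 and C2. The study's methods give no breed or lactation state for NC1 and C1, so these cannot be told apart from maturation either.

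Ligands of this family are made as membrane-anchored precursors, and proteases of the ADAM type, ADAM17 above all, cut them free. The freed ligand binds a receptor tyrosine kinase of the ERBB family and makes it pair with another, which switches on the RAS, RAF and MAP kinase chain. In the ovulatory follicle the luteinizing hormone surge induces amphiregulin, epiregulin and betacellulin in the granulosa, and these carry the signal to the cumulus, where they set off its expansion and the resumption of meiosis in the oocyte. In the RefSeq gene table of the cow genome, the genes EPGN, EREG, AREG and BTC follow one another as neighbouring protein-coding genes on chromosome 6.

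Each value below is the log2 signal of 1 probe after the median probe of the same array was set to 0, so that values compare arrays for 1 probe and do not rank genes. The probes are 60 bases long. The sequences of the probes for BTC, which fell most, for EGFR, the receptor of AREG and BTC, and for ADAM17, the sheddase of AREG, are given 5′ to 3′ as the authors' table holds them, and show which stretch of each transcript was read.
BTC: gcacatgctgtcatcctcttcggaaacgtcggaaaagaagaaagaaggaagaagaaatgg
EGFR: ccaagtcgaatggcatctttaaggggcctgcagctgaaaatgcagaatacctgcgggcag
ADAM17: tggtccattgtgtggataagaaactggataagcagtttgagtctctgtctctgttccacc

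Between 66.2% and 82.8% of the probes were well above background on an array, and no spot was saturated. A probe was called valid when, in every stage, at least 80% of the arrays detected it, and 13865 probes met this. Of the member genes, 7 had a valid probe, while AREG and both NRG1 probes did not and were tested in the same fit over all 21475 probes. The C2 arrays were not 5 evenly spaced samples: replicates 1 and 5 differed by a root mean square of 0.44 over the valid probes and replicates 3 and 4 by 0.53, against 1.07 to 1.28 for every other pair of C2 arrays. Replicates 3 and 4 were also scanned on the second of 2 scan days, and the other 3 on the first.

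Among the ligands, AREG was at or near background in compact cumulus and clearly detected in expanded cumulus, and BTC went the other way. AREG encodes amphiregulin. Its signal in NC1 had a lowest value of -5.65, a median of -4.41 and a highest value of -2.84, and in C1 these were -6.88, -5.69 and -4.59. It was well above background on 1 of 6 NC1 and 1 of 6 C1 arrays. On the C2 arrays it was 2.94, -2.69, 3.50, 3.65 and 2.41 for replicates 1 to 5, well above background on all 5. In measured signal all C2 arrays thus lay above all NC1 and C1 arrays, although replicate 2 stood just above the highest NC1 array and far below the other C2 arrays. C2 exceeded C1 by 7.74 (SE 0.86, limma adjusted p = 1.79e-06 over all probes) and NC1 by 6.32 (SE 0.86, adjusted p = 1.8e-05). Without C2 replicate 2 the differences were 8.90 and 7.48. Since most compact cumulus arrays gave only a limit for AREG, they were also set at a floor, the signal that 1% of the detected probes of an array lie below, and C2 was then 84.9-fold above C1 and 33.6-fold above NC1. With the normexp background correction, which raises low signals, the differences were 3.61 from C1 (adjusted p = 1.19e-05) and 3.13 from NC1 (adjusted p = 6.49e-05), so the size of the AREG difference depended on how signals near background were treated. The difference from NC1 was 5.68 among the arrays of the first scan day (adjusted p = 0.0117) and 7.50 among those of the second (adjusted p = 2.51e-06). The exact permutation test gave p = 0.00433 for either comparison, the smallest that 5 arrays against 6 allow. It used the measured signals, which were mostly at or near background in NC1 and C1.

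BTC encodes betacellulin, which binds EGFR and ERBB4. Its signal was even in NC1, between 2.30 and 2.77 with a median of 2.50, and spread more in C1, between 1.54 and 3.31 with a median of 2.70. On the C2 arrays it was -2.37, -3.84, -0.18, -0.95 and -2.37 for replicates 1 to 5, and 4 of these 5 were well above background. No C2 array reached the lowest array of either other stage, and replicates 3 and 4 kept the most signal. BTC was lower in C2 than in C1 by 23.8-fold (difference -4.57, SE 0.47, adjusted p = 5.57e-07) and lower than in NC1 by 21.8-fold (difference -4.44, SE 0.47, adjusted p = 8.4e-07). With the normexp correction these differences were -3.02 and -2.67. Of the 13865 valid probes, 37 had a more negative difference between C2 and C1. The fall was seen on all 5 slides that held a C2 array and within both scan days, where the difference from C1 was -5.48 on the first and -3.21 on the second.

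HBEGF encodes the heparin-binding ligand of EGFR and ERBB4. Its NC1 signal had a median of 2.94 and a range of 2.34 to 3.55, and its C1 signal a median of 1.92 and a range of 1.26 to 3.07. The C2 arrays gave 3.62, 2.68, 4.10, 4.42 and 3.81. Of the C2 arrays, 4 were above every NC1 and C1 array, while replicate 2 lay within both ranges. HBEGF rose from C1 to C2 by 3.27-fold (difference 1.71, SE 0.35, adjusted p = 7.83e-04), but within the first scan day this difference was 1.27 and did not pass (adjusted p = 0.0462). The difference of C2 from NC1 was 0.77 (SE 0.35, adjusted p = 0.0909). C1 lay below NC1 on all 6 slides, each of which held 1 array of either stage, by a fitted 0.94 (SE 0.34), which did not pass either (adjusted p = 0.300).

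NRG1 encodes neuregulin 1, a ligand of ERBB3 and ERBB4. Neither of its probes was well above background on any NC1 or C1 array, and each was on 1 of 5 C2 arrays. The probe described by its likeness to a human heregulin beta variant ranged from -6.70 to -4.27 over the 17 arrays. The probe for the bovine transcript ranged from -6.83 to -3.80, with its 2 highest values, -3.80 and -3.81, on C2 replicates 1 and 5. This second probe gave an adjusted p of 0.00951 between C2 and C1 in the fit over all probes, on signals near background. That call was lost in 19 of 29 alternatives, among them the slide as a block (adjusted p = 0.0163) and the scan day as a block (adjusted p = 0.0115), and no fold is given for it.

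**Figure D1:**
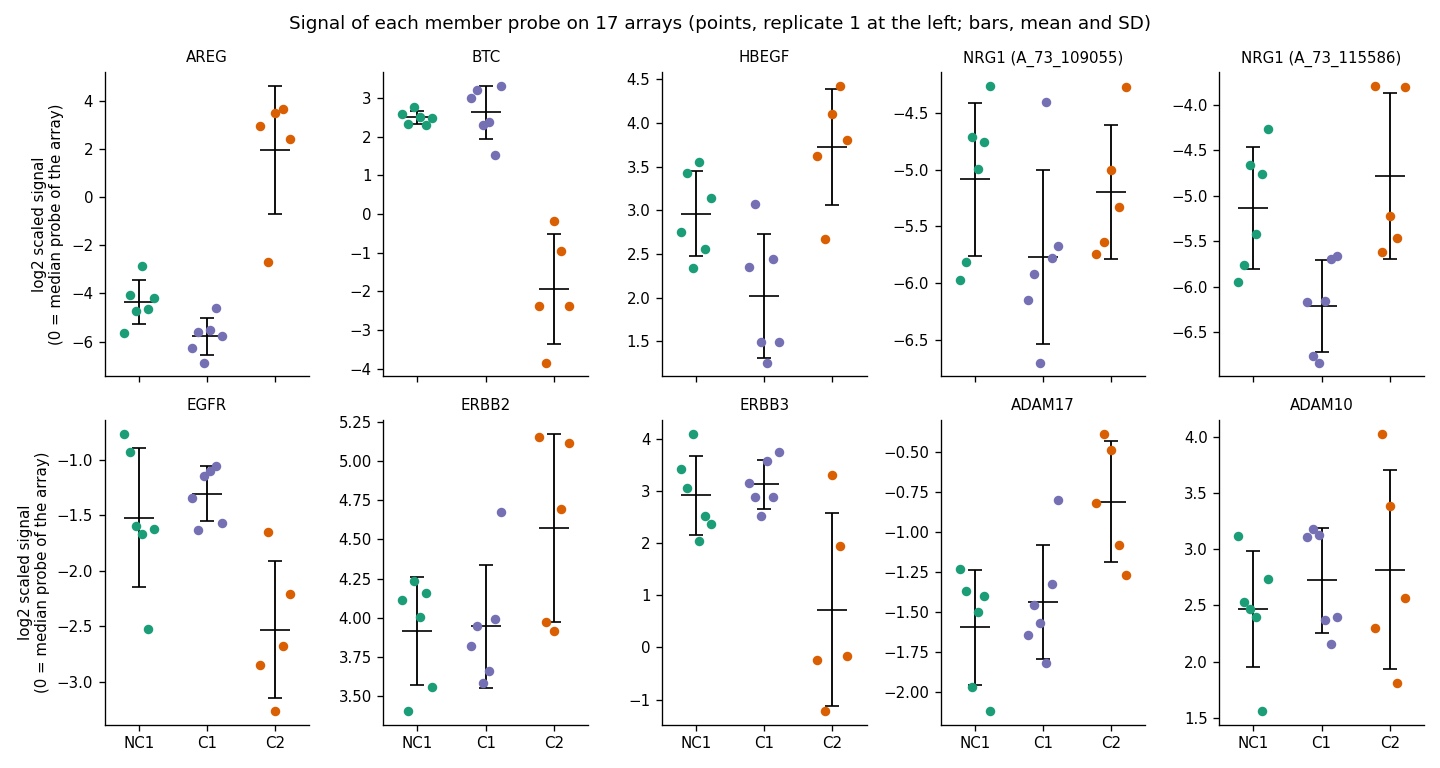
Log2 scaled signal (vertical axes, 0 is the median probe of the array, with a separate range in each panel) of the 10 member probes on the 6 NC1, 6 C1 and 5 C2 arrays. Points are single arrays with replicate 1 at the left of each group, and bars are the mean and SD. In measured signal, AREG and BTC show no overlap of C2 with the other stages, in opposite directions. AREG was well above background on only 1 of 6 NC1 and 1 of 6 C1 arrays. Its C2 replicate 2, at -2.69, lies just above the highest NC1 array, at -2.84.

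Of the receptors, EGFR, which binds amphiregulin, betacellulin and HB-EGF, and ERBB3, a partner with little kinase activity of its own, were lower in C2 than in C1, and ERBB2, the partner without a known ligand, was not called. The NC1 arrays gave EGFR signals of -2.53 to -0.77 (median -1.61), and the C1 arrays gave -1.63 to -1.05 (median -1.25). On the C2 arrays they were -2.85, -1.65, -3.26, -2.68 and -2.21, with 4 of 5 well above background. Every C2 array was below every C1 array, replicate 2 only just, and 3 of 5 were below every NC1 array. The difference of C2 from C1 was -1.22 (SE 0.30, adjusted p = 0.00323), a 2.33-fold lower signal, and that from NC1 was -1.01 (SE 0.30, adjusted p = 0.0117), which did not pass. The difference from NC1 passed in 6 of 32 alternatives: with the scan day as a block (-1.04, adjusted p = 0.00965), quantile normalization (adjusted p = 0.00713) or array weights (adjusted p = 0.00676), within the second scan day (-1.34, adjusted p = 0.00278), and without NC1 replicate 5 (-1.21, adjusted p = 0.00225) or C2 replicate 2 (-1.23, adjusted p = 0.00238). The call against C1 was lost within the first scan day (difference -0.92, adjusted p = 0.211), without C2 replicate 3 (-1.04, adjusted p = 0.0119) and with the normexp correction (-0.35, adjusted p = 0.0965).

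ERBB3 signals ranged from 2.05 to 4.09 in NC1 with a median of 2.80, and from 2.52 to 3.75 in C1 with a median of 3.02. The C2 arrays gave -0.24, -1.21, 3.32, 1.94 and -0.17 for replicates 1 to 5. Replicates 1, 2 and 5 were below every array of the other stages, replicate 4 was just below their lowest, and replicate 3 lay well within their range. ERBB3 was lower in C2 by 2.41 than in C1 (SE 0.61, adjusted p = 0.00397) and the difference from NC1 was -2.19 (SE 0.61, adjusted p = 0.00754). The lowest C2 arrays, those of replicates 1, 2 and 5, were scanned on the first day. On that day the difference from C1 was -3.81 (adjusted p = 1.57e-04), and on the second day it was -0.37 (adjusted p = 0.609). The NC1 means on the first and second day were 3.00 and 2.84, and the C1 means were 3.26 and 3.00. The difference from C1 was -1.92 without C2 replicate 2, -2.16 without replicate 1 and -2.18 without replicate 5, none of which passed, and -3.05 without replicate 3, which did. The call against NC1 was lost in 11 of 32 alternatives: without NC1 replicate 1, 2, 3 or 5, without C2 replicate 1, 2 or 5 (adjusted p between 0.0106 and 0.0227 in these), within the second scan day (-0.21, adjusted p = 0.790), with the normexp correction (-1.57, adjusted p = 0.0135), without the filter on low values (adjusted p = 0.0106) and with the replicate number as a block (adjusted p = 0.0116). The parts of scan day and of single animals in the ERBB3 values were not tested.

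ERBB2 was between 3.41 and 4.24 in NC1, with a median of 4.06, and between 3.58 and 4.68 in C1, with a median of 3.88. On the C2 arrays it was 5.15, 3.98, 3.91, 4.70 and 5.11. Replicates 1, 4 and 5 were above every array of the other stages and replicates 2 and 3 were among them. Differences of 0.62 from C1 (SE 0.26, adjusted p = 0.0665) and 0.66 from NC1 (SE 0.26, adjusted p = 0.0549) did not pass. They passed where the fit weighted the arrays by their quality, with values of 0.98 and 0.96 (adjusted p = 0.00542 and 0.00709).

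Of the sheddases, ADAM17 was called in 1 comparison and ADAM10 in none. ADAM17, which frees amphiregulin and HB-EGF from their precursors, ranged from -2.12 to -1.23 in NC1 (median -1.45) and from -1.82 to -0.80 in C1 (median -1.52). The C2 arrays gave -0.82, -0.39, -0.49, -1.08 and -1.27. Of these, 4 were above every NC1 array and 2 were above every C1 array. C2 exceeded NC1 by 0.79 (SE 0.23, adjusted p = 0.00923), a 1.73-fold higher signal, and the difference from C1 was 0.63 (SE 0.23, adjusted p = 0.0327). The call against NC1 lay close to the threshold and was lost in 22 of 32 alternatives, among them without C2 replicate 1, 2 or 3, without NC1 replicate 2, 3, 4, 5 or 6, and without C1 replicate 1, 2, 3 or 5, with differences between 0.68 and 0.83. The same difference was 0.50 within the first scan day and 1.08 within the second, and neither passed (adjusted p = 0.264 and 0.0129).

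ADAM10, the main sheddase of betacellulin, had a lowest value of 1.56 in NC1 and 2.15 in C1, medians of 2.50 and 2.75, and highest values of 3.12 and 3.18. Its C2 values of 2.30, 4.02, 3.39, 1.81 and 2.56 reached above and below those of C1. The difference of C2 was 0.09 from C1 (SE 0.35, adjusted p = 0.850) and 0.35 from NC1 (SE 0.35, adjusted p = 0.466), smaller than the SD of 0.88 among the C2 arrays, and the sign of the difference from C1 changed in 7 of 32 alternatives.

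**Figure D2:**
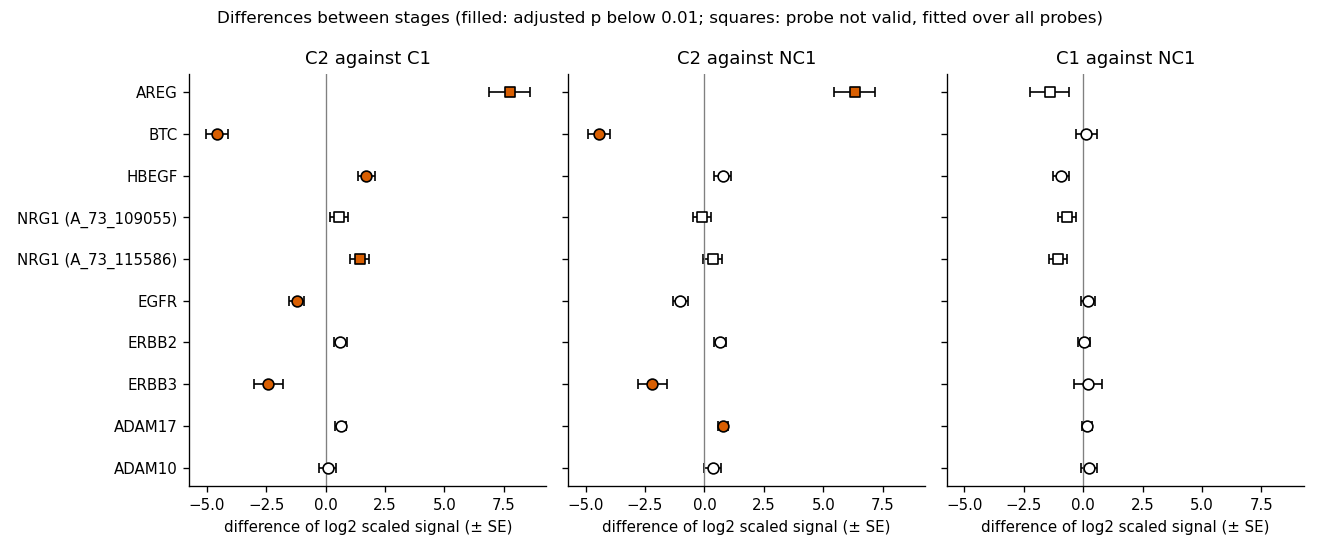
Differences of log2 scaled signal (horizontal axes, with SE) for each member probe in the 3 comparisons. Filled symbols passed an adjusted p of 0.01, and squares are probes that were not valid and were fitted over all probes; between C2 and C1, AREG lies farthest above 0 (7.74 as fitted, or 6.41 with arrays below background set at the floor, since 5 of 6 C1 arrays gave only a limit) and BTC farthest below (-4.57), and no symbol is filled between C1 and NC1.

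Of the 7 member genes with a valid probe, 4 were called between C2 and C1, beside 28.1% of all valid probes: HBEGF was higher, as were 15.3% of the valid probes, and BTC, EGFR and ERBB3 were lower, as were 12.8%. Arrays of the 2 stages did not overlap for BTC and EGFR, beside 21.6% of all valid probes. Against NC1, 3 of the 7 were called, beside again 28.1%. ADAM17 was higher there, as were 15.5% of the valid probes, and BTC and ERBB3 were lower, as were 12.6%. Arrays of C2 and NC1 did not overlap for BTC, beside 20.9%. In the fit over all probes, which holds AREG, 21.2% and 20.5% of the probes were called in these comparisons. The middle absolute difference of the 7 genes between C2 and C1 was 1.22, and that of all valid probes was 0.53. These 2 comparisons share the C2 arrays. Scaling each array on its 75th percentile in place of its median moved the middle difference of all valid probes between C2 and C1 from 0.02 to -0.11, and between C2 and NC1 from 0.11 to -0.04, and the rise of ADAM17 over NC1 was then 0.64 and no longer passed (adjusted p = 0.0445). Between C1 and NC1 limma called 0 of the 7, beside 0.0577% of the valid probes. HBEGF alone among the 7 had an unadjusted p under 0.05, with 0.0115 in limma and 0.0303 in the exact permutation test. The share of all valid probes at that unadjusted level was not counted, so nothing is drawn from it. AREG differed between C1 and NC1 by -1.42 (SE 0.82, adjusted p = 0.372), on signals mostly at background, where 0.116% of all probes were called.

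The single C2 arrays did not carry the same pattern over the members. Replicate 2 had the lowest AREG, HBEGF and BTC of the 5 and the highest EGFR. Replicates 1 and 5 gave near equal values for BTC, ERBB2 and ERBB3. Replicates 3 and 4 had the highest AREG and HBEGF, the highest BTC and ERBB3, and, with replicate 1, the lowest EGFR. When replicates 1 and 5, and 3 and 4, were averaged, so that C2 counted as 3 samples, AREG differed from C1 by 6.96 (adjusted p = 6.13e-05), BTC by -4.89 (adjusted p = 1.77e-06), HBEGF by 1.53 (adjusted p = 0.00876) and ERBB3 by -2.73 (adjusted p = 0.0025), while EGFR, at -1.08, no longer passed (adjusted p = 0.0218).

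**Figure D3:**
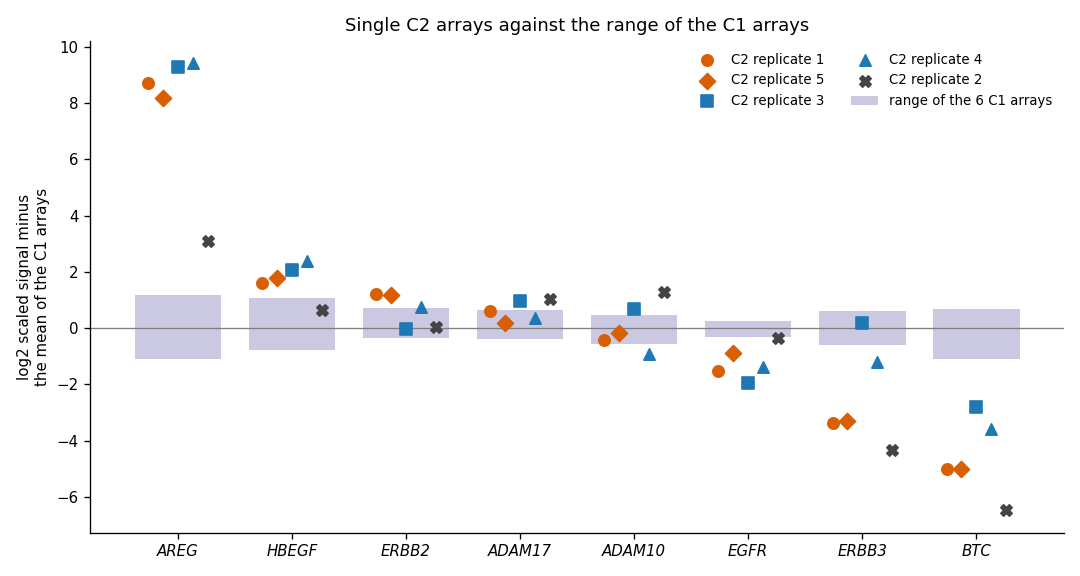
Log2 scaled signal of each C2 array minus the mean of the C1 arrays (vertical axis) for 8 member genes with a probe above background, with the range of the 6 C1 arrays as a shaded box. The symbols of replicates 1 and 5 and those of replicates 3 and 4 share a colour; replicate 2 lies closest to C1 for AREG and EGFR and farthest from it for BTC and ERBB3, and replicate 3 lies inside the C1 range for ERBB3.

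Of the other ligands of the family and the remaining receptor, 5 of 7 genes were on the array and 1, ERBB4, had a valid probe. ERBB4, the receptor of betacellulin and the neuregulins, gave a difference of -1.46 from C1 (SE 0.45, adjusted p = 0.0142), which did not pass. Its C2 values were 0.25, 1.04, -1.34, -1.57 and 0.27, against 0.79 to 1.50 in C1. Replicates 3 and 4 were the lowest here, replicates 1 and 5 were also below every C1 array, and replicate 2 lay within the C1 range. The ERBB4 difference from NC1 was -0.89 (SE 0.45, limma adjusted p = 0.125), with 2 of 5 C2 arrays below every NC1 array. TGFA, the transforming growth factor alpha gene, was -3.84 to -1.44 in NC1 and -4.67 to -1.74 in C1, well above background on 6 and 4 of 6 arrays. On the C2 arrays it was 4.03, -2.13, 0.50, 0.05 and 5.07, so that replicate 2 stayed in the range of compact cumulus and replicates 1 and 5 were far above it. TGFA differed from C1 by 4.36 (SE 0.99, adjusted p = 0.00232 over all probes). NRG2, a neuregulin, was well above background on all NC1 and C1 arrays, at -1.66 to 0.43, and on none of the C2 arrays. On the measured signals, NRG2 differed in C2 from C1 by -4.16 (SE 0.43, limma adjusted p = 6.98e-07 over all probes). The difference from NC1 was -4.90 (SE 0.43, adjusted p = 1.09e-07). With the C2 arrays set at the same floor as for AREG, NRG2 was at least 8.01-fold lower in C2 than in C1 and at least 13.4-fold lower than in NC1. These limits were not tested. NRG3 was detected on 4 of 6 C1 arrays and on no NC1 or C2 array, with means near background of -3.98 in C1, -4.71 in NC1 and -5.43 in C2. C2 differed from C1 by -1.46 as measured and by 0.07 with undetected arrays set at the floor. C1 differed from NC1 by 0.73 as measured and by -0.625 with the floor. EGF was detected on 2, 4 and 1 arrays of NC1, C1 and C2, with a difference between C2 and C1 of -0.66 (SE 0.40, adjusted p = 0.219).

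Of 16 genes of ligand shedding and traffic, 9 had a valid probe, of which 3 rose from C1 to C2 and 0 fell, beside 15.3% of all valid probes called higher and 12.8% called lower, and the median difference was 0.74, beside 0.02 for all valid probes. ADAMTS1, a secreted metalloprotease, rose by 3.69 (SE 0.44, adjusted p = 2.58e-06), from 2.13 to 3.86 in C1 to 5.22 to 7.76 in C2. CD9, a tetraspanin that binds the HB-EGF precursor, rose by 2.49 (SE 0.54, adjusted p = 0.00117). Of 26 genes of signal transduction below the receptors, 22 were valid, of which 9 rose and 0 fell, beside the same 15.3% and 12.8%, with a median of 0.60. The largest rises were those of the kinase genes ARAF, by 2.56 (SE 0.23, adjusted p = 9.61e-08), and MAP2K1, by 2.26 (SE 0.25, adjusted p = 1.33e-06). For both, every C2 array was above every array of compact cumulus.

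Of 22 genes that restrain the receptors or the MAP kinases, 16 were valid, of which 6 rose, 0 fell and 10 did not pass, with a median of 0.47; for this list and the next, the shares of all valid probes are again 15.3% and 12.8%. SPRY2, an inhibitor of receptor tyrosine kinase signalling, rose by 3.06 (SE 0.35, adjusted p = 1.54e-06), and DUSP10, a phosphatase of stress-activated kinases, by 2.40 (SE 0.42, adjusted p = 1.88e-04). Of 16 genes known as targets of EGF-like factors in cumulus, 12 were valid, of which 4 rose, 2 fell and 6 did not pass, and their median was -0.37. TNFAIP6 and PTX3, which build the matrix of the expanded cumulus, rose by 6.63 (SE 0.73, adjusted p = 1.11e-06) and 4.98 (SE 0.79, adjusted p = 6.51e-05). MYC, a growth-related transcription factor, fell by 4.78 (SE 0.62, adjusted p = 7.89e-06), and NPR2, the natriuretic peptide receptor that keeps the oocyte in meiotic arrest, fell by 2.02 (SE 0.19, adjusted p = 1.99e-07). Against NC1, 15.5% of all valid probes were called higher in C2 and 12.6% lower. Beside these shares, the 9 valid genes of shedding gave 3 rises, and the 22 of signal transduction 8 rises and 1 fall. The 16 inhibitors gave 3 rises and 1 fall, and the 12 targets 3 of each. Between C1 and NC1 limma called 0 of the 60 valid genes of these lists and of ERBB4, beside 0.0577% of all valid probes. Of the 60, 7 had an unadjusted limma p under 0.05. The share of all valid probes at that level was not counted, so nothing is drawn from this number.

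**Figure D4:**
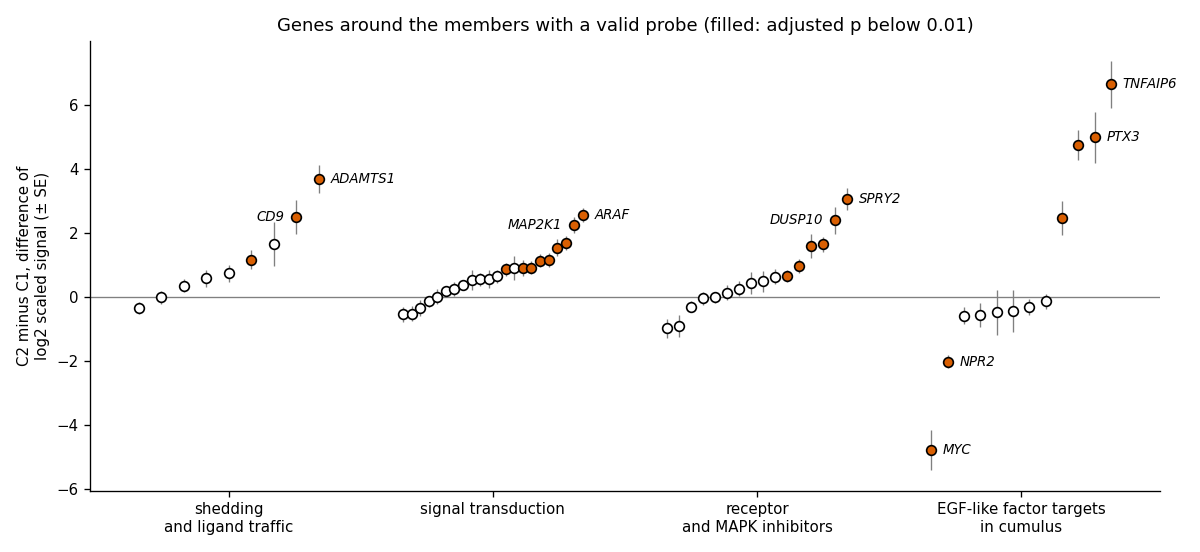
Difference of log2 scaled signal between C2 and C1 (vertical axis, with SE) for the genes with a valid probe in 4 lists around the EGF-like factors, ordered by size within each list. Filled points passed an adjusted p of 0.01; 9 of 22 signal transduction genes lie filled above 0 and none below, while the targets hold filled points on both sides, from MYC (-4.78) to TNFAIP6 (6.63).

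Profiles most like those of AREG and EGFR were sought among genes with a symbol and a valid probe, as the smallest root mean square difference over the 17 arrays after each probe was centred. For AREG, over 10814 genes, these were GFPT2 at 1.22, TM4SF1 at 1.29 and IL18 at 1.36, all with a mean difference between C2 and C1 of at least 6.51. For EGFR, over 10813 genes, they were TAPBP at 0.21, APMAP at 0.28 and BTD at 0.28. These distances describe the same 17 arrays and carry no test, and no such search was made for NRG1, which was not detected on all arrays of any stage.

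Markers of the labelled cells and of other follicular cells were set beside these results. Of all valid probes, 15.3% were called higher and 12.8% lower in C2 than in C1. Against NC1 these shares were 15.5% and 12.6%. Of 11 granulosa and cumulus markers, 10 were valid. The summed linear signal of all 11, in units of the array's median probe, was 3050 to 7110 in NC1, 3410 to 4850 in C1 and 1150 to 4020 in C2. Of the 10, 6 were called lower in C2 than in C1 and 6 lower than in NC1, with medians of -1.91 and -1.95. The summed theca and stroma markers were 177 to 311, 201 to 310 and 320 to 604, so that all C2 arrays were above all others. Of the 9 valid genes of this list, LUM and COL1A1 were called higher in C2 than in C1 and LUM higher than in NC1, the others were not called, and the medians of -0.25 and -0.10 went the other way from the sum. Endothelial markers summed to 1.33 to 2.89, 1.26 to 1.67 and 3.02 to 11.5, with KDR called higher in both comparisons and TEK lower against NC1 among 5 valid genes, medians of -0.11 against C1 and -0.32 against NC1, and the defining marker CDH5 not well above background on any array. Leukocyte markers summed to 25.4 to 51.0, 21.4 to 37.7 and 17.9 to 81.7, with 5 of 10 called higher than in C1 and 2 higher than in NC1 (medians 1.87 and 0.91). Oocyte markers, of which 4 were valid, with 0 called between C2 and C1 and 3 lower in C2 than in NC1 (median -3.13), summed to 54.4 to 129 in NC1, 5.18 to 49.7 in C1 and 3.61 to 8.00 in C2, and 3 red blood cell markers to 0.498 to 0.733, 0.575 to 0.769 and 0.571 to 0.754. Their part in the differences of the EGF-like genes was not tested. In RNA from whole cumulus samples, fewer cells of a type and less RNA per cell cannot be told apart.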

How the data were processed

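Total RNA (0.35 µg) of 17 cow cumulus samples was amplified and labelled with Cy3, and the labelled product was hybridised, 1 sample per array. The authors deposited linear intensity values per spot, written by Agilent Feature Extraction 10.5.1.1 after background subtraction and detrending without any scaling between arrays. A log2 table deposited by the authors, with 15256 probes scaled by the array median, held the probe sequences and differed from the spot values by a constant per array; it was used as an alternative. Samples were grouped by the stage in their labels, as 6 NC1, 6 C1 and 5 C2 samples, which the study's methods describe as different animals.

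Spots flagged as non-uniform or outliers were left out, the remaining log2 signals of each probe were averaged, and the median of the 21475 non-control probes of the array was subtracted. A probe was present where at least 50% of its spots were well above background, and valid where, in every stage, at least 80% of the arrays held it present. The 3 stages were compared in 1 fit in limma 3.58.1 (R 4.3.3; lmFit and eBayes), with Benjamini-Hochberg adjustment over the 13865 valid probes and a threshold of 0.01. Probes that were not valid were tested in the same fit over all probes without a filter. Single members were also compared by 2-sided exact permutation tests, which cannot go below p = 0.00433 with 5 and 6 arrays or below 0.00216 with 6 and 6. The fit was tested on simulated data with independent noise on each array. That test did not cover the likeness between some of the C2 arrays. Other steps ran in Python 3.11.15.

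A gene with several valid probes was given by the brightest. Named beside the members were, from each of 4 pathway lists, the 2 genes with the largest called rise and fall between C2 and C1, all genes of the list of other ligands and ERBB4, and the 3 profiles most like those of AREG and EGFR. The lists of ligands, shedding, signal transduction, inhibitors and targets, the markers of granulosa and cumulus, oocyte, leukocyte, red blood cell, endothelium and theca cells, and the members themselves were chosen with earlier results of these data known, and support nothing by themselves. Replicate numbers did not pair the samples. Each slide held 1 array of NC1 and 1 of C1, and 5 of the 6 slides also 1 of C2. Alternatives were another scaling (75th percentile, quantile), another background correction (normexp, offset 50), other filters, array weights, blocks for slide, scan day and replicate number, fits within each scan day, the authors' table and leaving out each array. Averaging similar C2 arrays and the floor for AREG, NRG2 and NRG3 were added after the values were seen. The number of arrays limits the precision.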

Additional observations from a re-analysis of the deposited data

Results flagged for a closer look

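Among 30 groups of arrays, 1 per probe and stage, 2 held an array set apart from the rest by its gap to the nearest other array relative to the whole range, where chance gives about 1 in 20. AREG on C2 replicate 2 was -2.69 on the log2 scale, with the nearest other C2 array at 2.41, a gap of 0.804 of the range. ERBB2 on C1 replicate 6 was 4.68, with the nearest other C1 array at 3.99, a gap of 0.627 of the range.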

How the results depend on the processing

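Of the results for single probes under the planned and added alternatives, 842 kept their direction and their side of the threshold, 62 kept the direction and lost the call and 9 gained it. In 23, of 7 comparisons of single probes, the sign changed, none past the threshold before or after. ADAM10 between C2 and C1 was -0.033 with the 75th percentile, -0.0037 with normexp, -0.21 with array weights and -0.30 within the second scan day, and -0.21 to 0.35 without 1 array in turn. The heregulin-like NRG1 probe between C2 and NC1 was 0.025 with quantile normalization, 0.12 with array weights and 0.30 within the first scan day, and -0.34 to 0.052 without 1 array in turn, and the other NRG1 probe was -0.046 with normexp and -0.56 within the second scan day. Between C1 and NC1, EGFR was -0.13 and ADAM17 -0.12 with normexp, ADAM17 -0.011 and ERBB2 -0.024 with array weights, ERBB2 -0.20 within the second scan day, and without 1 array in turn ERBB2 was -0.11 to 0.11 and BTC -0.0058 to 0.35. The calls of AREG and BTC between C2 and C1 held in each alternative run for them. Without 1 array in turn, probes differing over the 3 stages numbered 3429 to 4292, those called between C2 and C1 3358 to 4266, between C2 and NC1 3363 to 4153, and between C1 and NC1 1 to 19. Member genes called then numbered 3 to 4, 1 to 3 and 0 to 0 in these comparisons, and genes of the pathway lists 21 to 27, 20 to 26 and 0 to 0. The 3 members called between C2 and NC1 fell to 1 without NC1 replicate 2 or 3 or C2 replicate 1. Within the first scan day, 1295 probes differed over the stages (3969 in all arrays), with 1361, 1397 and 0 in the 3 comparisons (3892, 3893 and 8), and 2 member genes and 10 and 12 genes of the lists were called between C2 and C1 and C2 and NC1 (24 and 22 for the lists in all arrays). For C1 against NC1, 19 probes were called with the filter on any 1 stage, 25 with no filter, 239 with array weights, 2 with the slide as a block and 22 within the second scan day, and 3 list genes with array weights and 1 within the second scan day. Between C2 and NC1, 1 member gene, BTC, was called with the normexp correction. With the replicate number as a block, 0 probes were called between C1 and NC1 and 1 member gene, BTC, between C2 and NC1, where ERBB3 (adjusted p = 0.0116) and ADAM17 (0.0281) no longer passed; deviations of samples with the same number correlated between -0.317 and 0.252, so the numbers were not taken as pairs. Depth is not counted on arrays: AREG and NRG1 in compact cumulus were limited by background.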
